A study of Mus musculus with 37 samples.

Results

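MicroRNA-31 (miR-31) was followed through 12 populations of mouse stem, progenitor and leukaemic cells. It was measured by 2 of the 459 TaqMan assays of a quantitative PCR panel, named miR-31 and hsa-miR-31. The assays were taken by name, but the miRNA was itself chosen on its measured pattern over these populations, so its values below are a description and carry no test. The readout is the threshold cycle (Ct): a lower Ct means more RNA, 1 cycle is 1 log2 unit at full PCR efficiency, and 40 stands for no amplification. An assay was counted as detected in a run below Ct 35. The assay miR-31 was detected in 25 of 37 runs and hsa-miR-31 in 17 of 37. A further assay, HSA-leuk-mir-31, was listed at 40 in all 37 runs and is not used here, since its target is not given.

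MicroRNAs are short RNAs that guide the silencing machinery to messenger RNAs through their seed, bases 2 to 8 from the 5′ end, and lower translation and stability of those messages. miR-31 is known in mouse satellite cells as a repressor of the message for Myf5, a transcription factor that commits cells to muscle. In human cells it is known to target NIK, a kinase of the NF-kB pathway, and its loss is known from adult T-cell leukaemia and from tumours that delete the neighbouring CDKN2A locus.

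The mouse sequences are shown because both assays are named for this miRNA. They come from RefSeq (GRCm38.p6), and the sequence that hsa-miR-31 was designed on is not given in the sources used here. In the 2 mature strands the capitals mark the seed. In the hairpin they mark the strand called miR-31-5p, which fills bases 28 to 49 of 106, while miR-31-3p fills bases 64 to 86.
mmu-miR-31-5p: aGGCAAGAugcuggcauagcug
mmu-miR-31-3p: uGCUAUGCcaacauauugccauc
Mir31 hairpin: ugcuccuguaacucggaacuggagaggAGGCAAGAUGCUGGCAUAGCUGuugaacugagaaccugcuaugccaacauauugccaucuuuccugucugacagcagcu

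Mir31 lies on the minus strand at chr4:88910557-88910662, with miR-31-5p at chr4:88910614-88910635 and miR-31-3p at chr4:88910577-88910599. The hairpin falls inside the span of the long non-coding RNA gene Gm49890 (chr4:88909854-88942042). The table used gives neither the strand nor the exons of that gene. Mtap begins 226708 bases away, Cdkn2a, which encodes cell cycle inhibitors, 363811 bases and the interferon gene Ifnb1 387763 bases. The seed of miR-31-5p was shared by no other of the 1738 mature mouse miRNAs in the RefSeq table. No assay of the panel was named for the other strand.

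The study asked which miRNAs mark normal and aberrant stem cells, and sorted 20 to 1000 cells per sample by the submitters' account. Wild-type C57/Bl6 muscle gave 4 runs of quiescent satellite cells (MuSC), sorted from the tibialis anterior as CD34+ integrin-7+ cells without CD45, CD11b, CD31 and Sca1, and 4 runs of proliferating myoblasts from fore- and hindlimb muscle. From wild-type C57/Bl6 marrow came long-term haematopoietic stem cells (LT-HSC, 4 runs; Endoglin+, low in rhodamine, Sca-1+, without lineage markers) and progenitors of the wider Kit+ Sca-1+ Lin- gate (KSL-B6, 3 runs). The latter gate was also sorted from wild-type mice of strain Mixed 129Sv/J:C57Bl6 (KSL-Mixed, 2 runs), from AML-ETO9a transgenic C57/Bl6 mice (KSL-ETO, 3 runs) and from Rb family triple knockout mice of the mixed strain (KSL-RbTKO, 2 runs). Leukaemia came from C57/Bl6 mice transduced with the oncogene MLL-AF10, whose genotype is listed as wild type: Kit+ leukaemia stem cells (MLL-LSC, 3 runs) and the Kit- cells derived from them (MLL-Prog, 3 runs). Wild-type neural stem and progenitor cells of the subventricular zone and dentate gyrus were taken fresh at postnatal day 0 (NSPC-P0, 3 runs) or after culture of those cells into neurospheres (NSPC-P0-Exp, 3 runs). Primary neurospheres of adult mice formed the last group (NSPC-Adult, 3 runs). NSPC-P0 and NSPC-P0-Exp are labelled C57/Bl6, and the NSPC-Adult runs are labelled C57/Bl6, C57/Bl7 and C57/Bl8.

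The labels give neither the promoter of the AML-ETO9a transgene, nor the driver of the Rb family deletion, nor whether replicates came from separate animals or cultures. The spread between runs may therefore be technical. MuSC runs 1 and 2 were near-identical, as were runs 3 and 4, so each pair was averaged and counts as 1 sample, and 35 samples remained. Runs detected 61 to 143 assays, with the fewest in KSL-RbTKO (61 to 65), MuSC (65 to 90) and LT-HSC (73 to 96). The labelled blood cells had miR-223, the granulocyte miRNA, in every run, and MuSC and myoblasts had miR-206, a skeletal muscle miRNA, in every run. Of the 5 neural marker assays, 4 were missed in every run of each neural population, mmu-miR-9 and both miR-124a assays among them, so these miRNAs did not bear out the neural label.

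In muscle, miR-31 went from undetected in quiescent stem cells to among the strongest signals of the panel in myoblasts. In the 4 MuSC runs the assay miR-31 stood at Ct 40, 38.2, 40 and 40, and hsa-miR-31 at 40 in all 4. In the 4 myoblast runs miR-31 stood at Ct 22.7, 22.7, 22.1 and 22.7, and hsa-miR-31 at 20.8, 20.8, 20.5 and 21. The lowest MuSC Ct of the members, 38.2, lay far above the highest myoblast Ct, 22.7. By Ct, hsa-miR-31 ranked 2 to 5 of the 459 assays in each myoblast run and miR-31 ranked 9 to 10, although assays can differ in efficiency and such a rank is not an order of abundance.

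**Figure D1:**
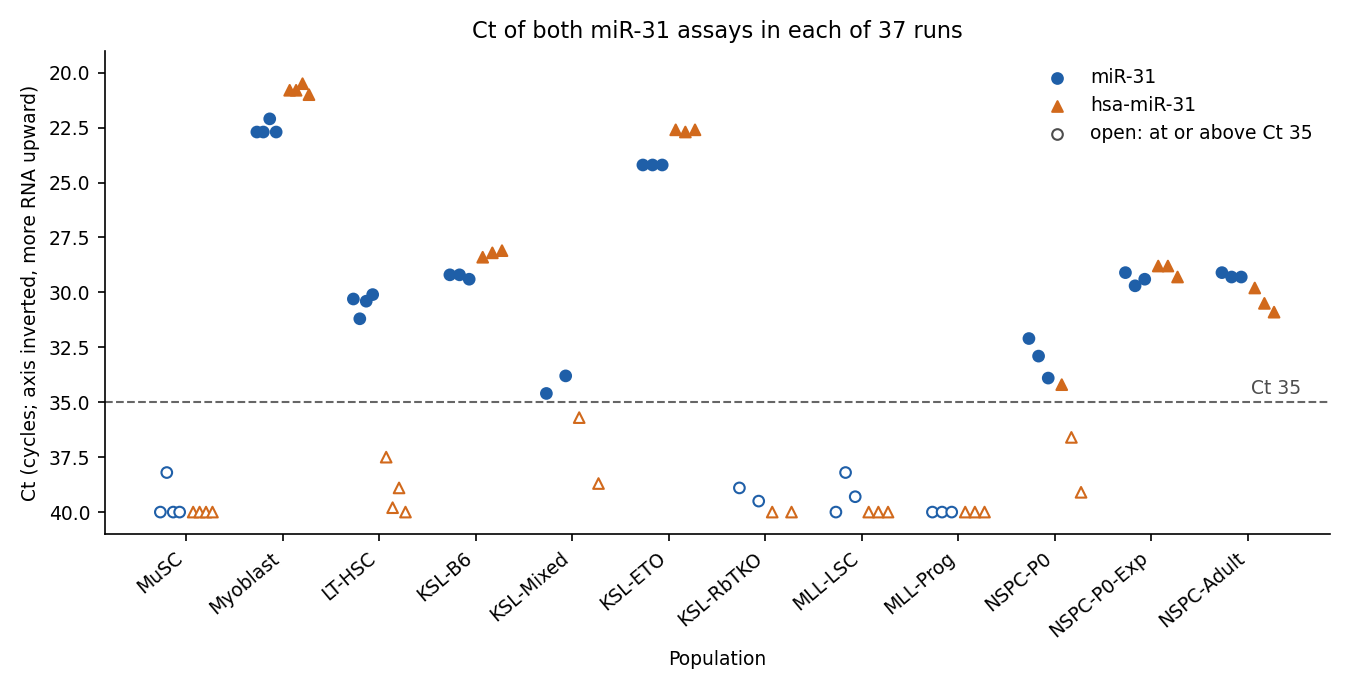
Ct of miR-31 (circles) and hsa-miR-31 (triangles) in each of 37 runs of 12 populations, on an inverted axis so that more RNA lies higher; open symbols are at or above the dashed detection limit of Ct 35. Myoblast and KSL-ETO runs stand at Ct 20.5 to 24.2 by both assays, and MuSC, KSL-RbTKO, MLL-LSC and MLL-Prog runs stand at 38.2 to 40.

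To compare runs, each Ct was subtracted from the mean Ct of the 28 assays detected in all 37 runs, which gives a level on the log2 scale. On it miR-31 was at 3.69 ± 0.16 (SD, n = 4) in myoblasts, and hsa-miR-31 at 5.46 ± 0.05 (SD, n = 4). MuSC could have shown a level down to -6.58. Myoblasts were thus higher by at least 10.27 ± 0.17 (SE, n = 4 and 2 samples) for miR-31 and by at least 12.04 ± 0.14 for hsa-miR-31, which is at least 1231-fold and at least 4214-fold. The standard errors come from limma's fit over all assays and are understated where a whole group lies at its detection limit. Among the 127 assays compared, hsa-miR-31 had the largest and miR-31 the next largest difference towards myoblasts, beside a median over all of 1.73. In 59.8% of these assays every myoblast sample lay above every MuSC sample, both members among them. A higher level per sample can mean more cells with the miRNA or more of it per cell, and these cannot be told apart here or in the comparisons below.

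Other miRNAs known from muscle stem cells and myogenesis were described beside it, from a list of 22 miRNAs that 27 assays of the panel measured. Of 21 list assays compared, 10 rose from MuSC to myoblasts and 2 fell by limma's test, 57.1% against 66.1% of all assays compared, so the share called in the list was near the background. The list's median difference was 1.01 beside 1.73 over all. miR-222 (5.73 ± 0.19, limma adjusted p = 3.85e-06) and mmu-miR-221 (4.53 ± 0.23, limma adjusted p = 1.74e-05), which share a seed and are known to target Cdkn1b, rose most clearly. With them came miR-181bN (at least 4.39 ± 0.26, limma adjusted p = 3.18e-05). The second assay of miR-181b, hsa-miR-181b, differed by only 0.36 ± 0.14 and was not called (limma adjusted p = 0.0709). With quantile normalization hsa-miR-181b fell, at -1.41 (limma adjusted p = 0.000582). miR-26a (-2.77 ± 0.24, limma adjusted p = 0.000152) and miR-195 of the miR-15/16 family (-3.14 ± 0.30, limma adjusted p = 0.000243) fell. With no scaling neither fall was called (miR-26a -0.65, miR-195 -1.02), and the second assay of miR-26a, miR-26aN, differed by 0.63 ± 0.25 in the other direction (limma adjusted p = 0.0675).

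The difference in miR-31 came with a difference in markers of muscle and of connective tissue. The summed level of the 3 skeletal muscle marker assays, in log2, was -0.58 to -0.41 in MuSC and 4.51 to 5.51 in myoblasts, with miR-206 at Ct 28.7 to 29.0 and 20.7 to 22.0. Of 7 mesenchymal marker assays, 2 were detected in every myoblast run and 4 in none, and their summed level was -2.20 to -0.74 in MuSC and 0.99 to 1.18 in myoblasts. The endothelial miR-126 was missed in every MuSC run and stood at Ct 30.0 to 31.2 in myoblasts. The part of these markers in the result was not tested.

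In marrow cells of the Kit+ Sca-1+ Lin- gate, miR-31 was far higher in AML-ETO9a transgenic mice than in wild-type mice of the same strain. In the 3 KSL-B6 runs miR-31 stood at Ct 29.2, 29.2 and 29.4, and hsa-miR-31 at 28.4, 28.2 and 28.1. In the 3 KSL-ETO runs miR-31 stood at Ct 24.2 in each, and hsa-miR-31 at 22.6, 22.7 and 22.6. The groups did not overlap by either assay, and KSL-ETO was the 1 blood population near the myoblasts. In KSL-ETO hsa-miR-31 ranked 3 of 459 assays by Ct in each run.

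As levels, miR-31 was at -4.11 ± 0.09 (SD, n = 3) in KSL-B6 and at 2.06 ± 0.12 (SD, n = 3) in KSL-ETO. The difference was 6.17 ± 0.13 (SE) by the assay miR-31 and 6.70 ± 0.16 by hsa-miR-31, or 71.9-fold and 104-fold. Both assays were measured in every run of both groups, so unlike in muscle these differences are no bounds. Among 125 assays hsa-miR-31 had the largest difference towards KSL-ETO and miR-31 the third largest, beside a median of 0.57. In 51.2% of the assays compared every KSL-ETO run lay above every KSL-B6 run.

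Markers of blood and other cells moved with it, and within the blood and epithelial lists they moved both ways. Of 5 blood marker assays, 3 lay higher in every KSL-ETO run than in any KSL-B6 run, 1 lay lower and 1 overlapped, with a median difference of 1.87. The 3 higher ones measured miR-142: miR-142-3p differed by 1.97, miR-142-5p by 1.87 and mmu-miR-142-3p by 3.13. The lower one was miR-223, at -2.70, with Ct 20.5 to 21.0 in KSL-B6 and 24.6 in every KSL-ETO run. The list's summed level went the way of miR-223 and was 4.34 to 4.87 in KSL-B6 and 2.98 to 3.18 in KSL-ETO. Among 13 epithelial assays 3 could be compared: miR-200c was higher by 2.80 and miR-200cN by 3.23, while miR-203 differed by -6.23 or lower, and the summed level was -2.60 to -1.74 in KSL-B6 and -4.09 to -3.36 in KSL-ETO. The endothelial marker assays summed to 0.71 to 0.95 in KSL-B6 and -0.33 to 0.01 in KSL-ETO. The 3 skeletal muscle marker assays were missed in every run of both groups. Of the 7 mesenchymal ones 6 were missed in every KSL-ETO run, and the summed level was -5.51 to -4.89 beside -6.66 to -6.35 in KSL-B6. The part of these markers in the result was not tested.

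**Figure D2:**
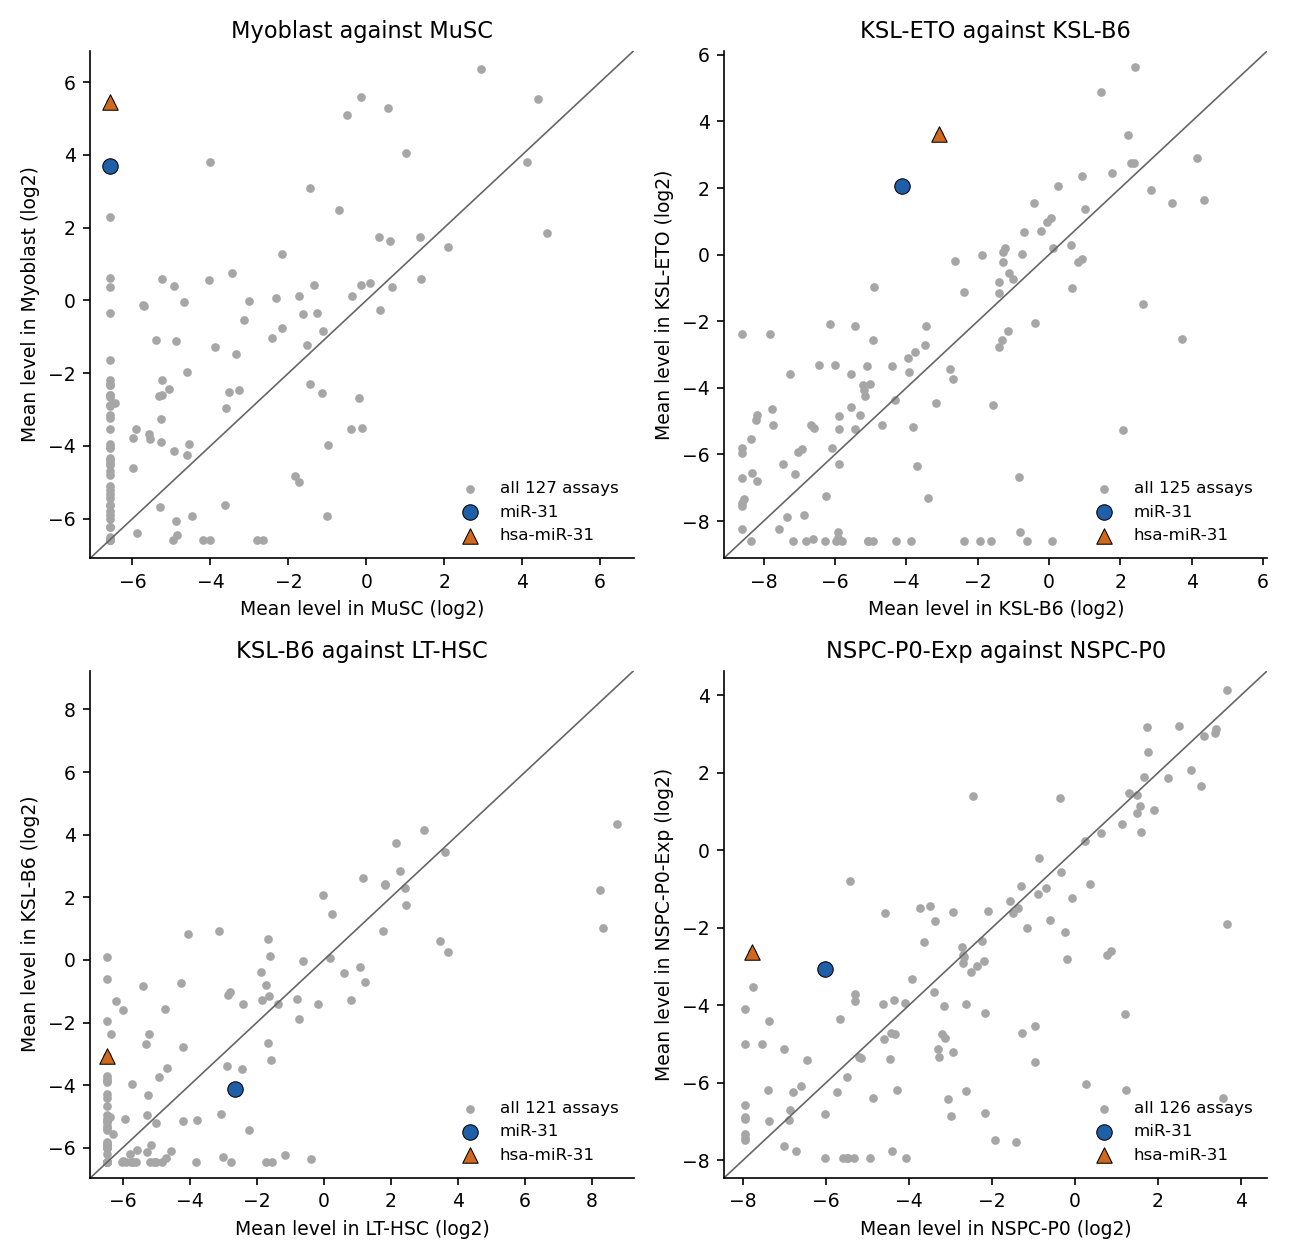
Mean log2 level of each assay compared (grey), with miR-31 (circle) and hsa-miR-31 (triangle) marked, in 4 pairs of populations; the line marks equal levels, and values stacked on the lowest level lie at the detection limit common to the samples. Both members lie far above the line in Myoblast against MuSC and in KSL-ETO against KSL-B6, and fall on opposite sides of it in KSL-B6 against LT-HSC.

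From LT-HSC to KSL-B6, the step from long-term stem cells to the wider progenitor gate, the assays gave opposite answers. In the 4 LT-HSC runs miR-31 stood at Ct 30.3, 31.2, 30.4 and 30.1, and hsa-miR-31 at 37.5, 39.8, 38.9 and 40. Every LT-HSC run lay below the limit by the assay miR-31, and none did by hsa-miR-31. A Ct below the limit need not mean that the named miRNA is present. The reference assays hsa-miR-516-3p and hsa-miR-522, known from primates alone, were also detected in every mouse run. Their levels in LT-HSC were -1.56 and 1.24. As levels, miR-31 was at -2.63 ± 0.65 (SD, n = 4) in LT-HSC, and KSL-B6 differed by -1.48 ± 0.36 (SE, n = 3 and 4). For hsa-miR-31 KSL-B6 was higher by at least 3.38 ± 0.17.

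The direction for miR-31 rested on the scaling. LT-HSC runs had their 28 reference assays at a mean Ct of 27.4 to 28.5 and KSL-B6 runs at 25.1 to 25.2, and with no scaling KSL-B6 was higher by 1.23. For hsa-miR-31 the direction was the same under every scaling tried, but every LT-HSC run missed this assay. With those runs at the detection limit the direction had little room to turn, so its steadiness shows little. In 39.7% of 121 assays every KSL-B6 run lay above every LT-HSC run, hsa-miR-31 among them, and in 23.1% every KSL-B6 run lay below, miR-31 among them. Markers differed in this step too. The blood marker assays summed to 8.49 to 9.09 in LT-HSC and 4.34 to 4.87 in KSL-B6, and 3 of the 5 lay lower in every KSL-B6 run, with miR-223 at -4.39 (-0.19 with quantile normalization). With no scaling the 3 assays of miR-142 turned to between 1.57 and 2.55, higher in KSL-B6. Both endothelial assays were higher in KSL-B6, miR-126 by 4.88 and miR-126* by at least 1.38. Of the epithelial assays, miR-375 differed by -5.98 and miR-203 was higher by 2.84. The part of these markers in the result was not tested.

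Wild-type progenitors of the mixed strain had less miR-31 than those of C57/Bl6. In the 2 KSL-Mixed runs miR-31 stood at Ct 34.6 and 33.8, just inside the detection limit, and hsa-miR-31 at 35.7 and 38.7, outside it. The level of miR-31 was -7.23 ± 0.31 (SD, n = 2), a difference from KSL-B6 of -3.11 ± 0.19 (SE, n = 2 and 3), and hsa-miR-31 differed by -4.76 ± 0.20 or lower. Both assays were lower in each KSL-Mixed run than in any KSL-B6 run. Such a gap was common, since 49.6% of 115 assays lay lower in the same way, and KSL-Mixed runs detected 98 to 102 assays against 123 to 133 in KSL-B6. With a detection limit of Ct 32, which no KSL-Mixed run met for either assay, the bound for miR-31 shrank to -0.93. The blood marker assays summed to 4.14 to 4.80 in KSL-Mixed, a range that overlapped that of KSL-B6, though miR-142-5p within the list differed by -2.65. The endothelial assays summed to -0.11 to 0.66, below the 0.71 to 0.95 of KSL-B6, with miR-126* at -2.51. The mesenchymal assays summed to -4.71 to -3.64, above the -6.66 to -6.35 of KSL-B6, with miR-145 higher by 2.40. The part of these markers in the result was not tested.

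The Rb family triple knockout cells had no detectable miR-31. In the 2 KSL-RbTKO runs miR-31 stood at Ct 38.9 and 39.5, and hsa-miR-31 at 40 in both. The runs were also the weakest of the series, with reference assays at Ct 29.3 to 29.8, and could not have shown a level below -5.23. The KSL-Mixed level of -7.23 lay below that limit, so no difference from the control strain could be measured.

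MLL-AF10 leukaemia cells lacked a miR-31 signal, and the MLL-LSC runs were among the strongest of the series. In the 3 MLL-LSC runs miR-31 stood at Ct 40, 38.2 and 39.3, and hsa-miR-31 at 40 in each. In the 3 MLL-Prog runs both assays stood at 40 throughout. Neither leukaemia population gave a value below the limit, so they could not be compared with each other. MLL-LSC runs had reference assays at Ct 25.0 to 25.4, the level of KSL-B6, and could have shown a level down to -9.61. MLL-Prog runs had reference assays at Ct 26.05 to 26.31 and could have shown a level down to -8.69.

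Against KSL-B6, MLL-LSC were lower for miR-31 by a difference of -5.50 ± 0.13 or lower (SE, n = 3 and 3), and for hsa-miR-31 by -6.53 ± 0.17 or lower. Against LT-HSC the difference for miR-31 was -3.82 ± 0.36 or lower (SE, n = 3 and 4), and hsa-miR-31 was missed in both groups. Every MLL-LSC run lay below every run of the normal cells in these 3 differences. The same held for 26.7% of 135 assays against KSL-B6 and for 19.5% of 123 against LT-HSC. Among blood cells, miR-31 was thus missed in 6 of 6 MLL-AF10 runs and highest in 3 of 3 AML-ETO9a runs. A missed signal was not particular to MLL-AF10 cells. Both assays were also missed in every KSL-RbTKO run, and hsa-miR-31 in every run of wild-type LT-HSC and KSL-Mixed.

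Cell type markers moved with these differences. The blood marker assays summed to 7.72 to 7.86 in MLL-LSC, above KSL-B6 and below the 8.49 to 9.09 of LT-HSC. Against KSL-B6, 4 of the 5 were higher in every MLL-LSC run, miR-223 by 3.40 (0.19 with quantile normalization), while miR-150, known from mature lymphocytes, differed by -4.27. Against LT-HSC miR-150 differed by -7.11 and miR-223 by -0.99, and with no scaling miR-223 turned to 1.66. Against KSL-B6 the endothelial miR-126 differed by -5.17 and miR-126* by -4.53 or lower, and against LT-HSC miR-126 overlapped. The mesenchymal miR-145 was higher by 3.03 and miR-143 by at least 2.90 against KSL-B6, and the neural miR-128a was higher by 4.07. Epithelial assays moved both ways against KSL-B6: miR-203 differed by -6.48, miR-200b was higher by 3.42, and miR-200c and miR-200cN overlapped. The part of these markers in the result was not tested.

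In the brain, miR-31 was higher in expanded neurospheres than in the newborn cells they came from. In the 3 NSPC-P0 runs miR-31 stood at Ct 32.1, 32.9 and 33.9, and hsa-miR-31 at 34.2, 36.6 and 39.1. In the 3 NSPC-P0-Exp runs miR-31 stood at Ct 29.1, 29.7 and 29.4, and hsa-miR-31 at 28.8, 28.8 and 29.3. The groups did not overlap by either assay, and hsa-miR-31 was detected in 1 of the 3 NSPC-P0 runs. As levels, miR-31 went from -6.03 ± 0.78 to -3.06 ± 0.23 (SD, n = 3 each), a difference of 2.97 ± 0.43 (SE). For hsa-miR-31 the difference was 5.14 ± 0.29, with the 2 runs that missed it set to the limit.

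Among 126 assays hsa-miR-31 had the largest difference towards the expanded cells and miR-31 the sixth largest, beside a median of -0.26. In 22.2% every expanded run lay above every NSPC-P0 run. Of 17 list assays of muscle stem cell and myogenic miRNAs, 5 rose and 3 fell by limma's test, 47.1% beside 46.8% of all assays. miR-27a (4.22 ± 0.22, limma adjusted p = 0.000130), miR-29a (at least 3.86 ± 0.18, limma adjusted p = 0.000130) and miR-29c (2.94 ± 0.26, limma adjusted p = 0.000727) rose. miR-29 is known to restrain collagen messages, but miR-29bN of this family did not rise (-0.33 ± 0.14, limma adjusted p = 0.127). miR-125b (-1.16 ± 0.14, limma adjusted p = 0.00248), miR-26a (-0.73 ± 0.13, limma adjusted p = 0.00983) and miR-26aN (-0.63 ± 0.12, limma adjusted p = 0.00983) fell. Both miR-26a falls were not called with no scaling, at -0.13 and -0.03, the calls of miR-125b and miR-26a ended with quantile normalization, and that of miR-26aN without NSPC-P0 run 2 (limma adjusted p = 0.0532).

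The summed levels of endothelial, blood and mesenchymal markers went the opposite way from miR-31 in this step. The endothelial marker assays summed to 3.60 to 3.77 in NSPC-P0 and to -2.88 to -0.09 after expansion. The blood marker assays summed to 1.45 to 1.61 and to -6.00 to -1.08. Of these miR-142-3p, a blood cell miRNA, was detected in 3 of 3 NSPC-P0 runs and in 0 of 3 expanded runs. miR-223 differed by -3.45 ± 1.86, but its runs overlapped and it was not called (limma adjusted p = 0.21). The mesenchymal ones summed to -3.11 to -2.60 and to -5.38 to -4.42. The epithelial ones overlapped, at -3.75 to 0.36 in NSPC-P0 and -6.71 to 1.35 after expansion. NSPC-P0 isolates thus held more summed signal of vessel and blood cell miRNAs than the neurospheres. The part of these markers in the result was not tested.

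Neurospheres from adult mice had somewhat less miR-31 than those from newborns. In the 3 NSPC-Adult runs miR-31 stood at Ct 29.1, 29.3 and 29.3, and hsa-miR-31 at 29.8, 30.5 and 30.9. The level of miR-31 was -3.80 ± 0.19 (SD, n = 3), a difference from NSPC-P0-Exp of -0.74 ± 0.19 (SE), and the difference for hsa-miR-31 was -2.34 ± 0.41. Neither assay overlapped between the groups on the level scale, as was so for 25.8% of 132 assays in this direction. The Ct of miR-31 did overlap, and with no scaling its difference turned to 0.17, while hsa-miR-31 stayed lower at -1.43. Of 18 list assays 1 rose and 3 fell by limma's test, 22.2% beside 40.9% of all assays. hsa-miR-181b rose (0.69 ± 0.15, limma adjusted p = 0.0205), while miR-125b (limma adjusted p = 0.0199), mmu-miR-221 and miR-24 (limma adjusted p = 0.0271 each) each differed by -0.71. With no scaling those 3 assays stood at 0.20 and none of them was called. hsa-miR-181b was not called after scaling on the median of the common assays or with quantile normalization (limma adjusted p = 0.129 and 0.158). Each of these 4 calls also ended when any of 3 to 5 of the 6 runs was left out, with a limma adjusted p of up to 0.0916 without NSPC-P0-Exp run 1.

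Markers of several cell types also differed between adult and newborn neurospheres. The neural miR-128a was higher in NSPC-Adult by 3.09 (limma adjusted p = 0.00974) and the mesenchymal miR-143 by at least 1.61 (limma adjusted p = 0.00458), a call that ended with quantile normalization (limma adjusted p = 0.281). The mesenchymal miR-145 (1.56) and the epithelial miR-375 (3.39) were higher as well (limma adjusted p = 0.0271 each), but each call ended when any of 4 or 5 of the 6 runs was left out, with a limma adjusted p of up to 0.0904 without NSPC-Adult run 2, and that of miR-145 ended after scaling on the median (limma adjusted p = 0.0690). The epithelial miR-203 overlapped between the groups (0.73, limma adjusted p = 0.29). Epithelial assays summed to -6.71 to 1.35 in NSPC-P0-Exp and to -5.13 to -3.50 in NSPC-Adult. The endothelial assays summed to -2.88 to -0.09 in NSPC-P0-Exp and to -5.40 to -4.03 in NSPC-Adult, and miR-126 differed by -2.84 (limma adjusted p = 0.0520). The part of these markers in the result was not tested.

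The whole order of populations by miR-31 ran from myoblasts through KSL-ETO, LT-HSC, NSPC-P0-Exp, NSPC-Adult, KSL-B6 and NSPC-P0 to KSL-Mixed, with MuSC, KSL-RbTKO, MLL-LSC and MLL-Prog undetected. The limits of MuSC (-6.58) and KSL-RbTKO (-5.23) lay above the KSL-Mixed level (-7.23), so neither could be placed against it. Nor could KSL-RbTKO be placed against NSPC-P0 (-6.03). By hsa-miR-31 the order ran from myoblasts through KSL-ETO, NSPC-P0-Exp and KSL-B6 to NSPC-Adult. LT-HSC has no place in it, since hsa-miR-31 was missed in all 4 runs. With no scaling LT-HSC also fell below NSPC-Adult, KSL-B6 and NSPC-P0-Exp in the order by miR-31. Neighbours in the order by miR-31 did not overlap in their runs, except LT-HSC and NSPC-P0-Exp, whose means differed by 0.43. In the order by hsa-miR-31 only NSPC-P0-Exp and KSL-B6 overlapped, with means 0.45 apart. The gap below KSL-ETO was wide by both assays, 4.69 log2 units by miR-31 and 6.25 by hsa-miR-31. Myoblasts lay above KSL-ETO by 1.63 and 1.84, but with quantile normalization hsa-miR-31 put KSL-ETO first.

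**Figure D3:**
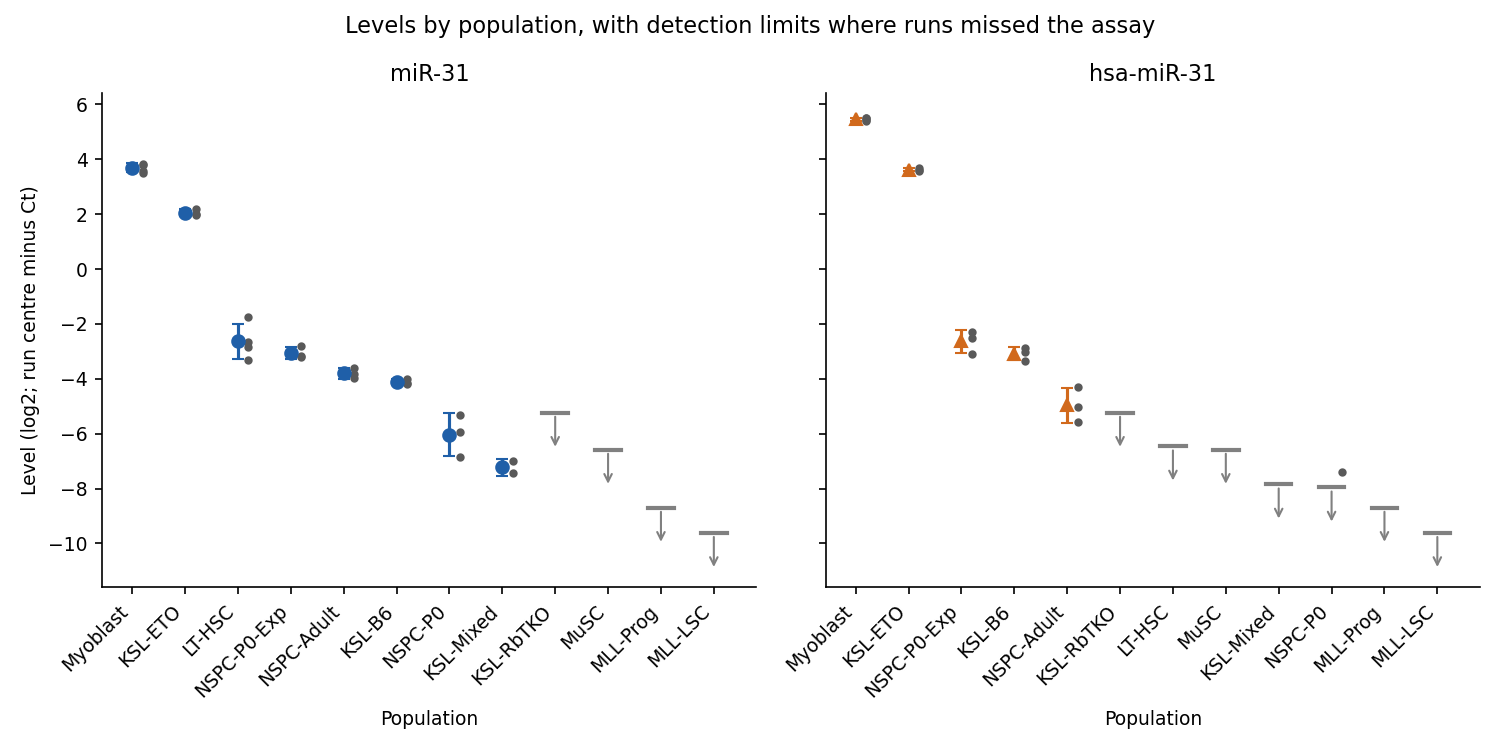
Log2 level of each assay by population, as mean ± SD with the single runs beside it (small points), for populations with every run detected; grey bars with arrows mark the highest detection limit among samples where a population missed the assay. Myoblasts (3.69 and 5.46) and KSL-ETO (2.06 and 3.62) stand apart from the other populations by both assays.

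The assays differed by an amount that was steady within a population and not between populations. In the 17 runs that both assays detected, Ct of hsa-miR-31 minus Ct of miR-31 was -1.78 ± 0.15 (SD, n = 4) in myoblasts, -1.57 ± 0.06 (SD, n = 3) in KSL-ETO and -1.03 ± 0.25 (SD, n = 3) in KSL-B6. It was -0.43 ± 0.42 (SD, n = 3) in NSPC-P0-Exp, 1.17 ± 0.45 (SD, n = 3) in NSPC-Adult and 2.1 in the 1 NSPC-P0 run. Thus hsa-miR-31 came up first in myoblasts, KSL-ETO, KSL-B6 and NSPC-P0-Exp, and miR-31 in NSPC-Adult and NSPC-P0. Another 8 runs detected miR-31 alone. There the gap has a lower bound of 3.8 to 4.9 cycles in LT-HSC, 0.4 to 1.2 in KSL-Mixed and 1.1 to 2.1 in NSPC-P0. No run detected hsa-miR-31 alone, and 12 detected neither.

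KSL-B6, NSPC-P0-Exp and LT-HSC had like Ct values by miR-31, 29.1 to 31.2, and yet gaps from -1.3 to above 4.9. Runs with like signal by miR-31 thus differed widely in the gap. The assays sit at wells E11 and G2 of the layout, under numbers 251 and 450. A second assay was common on the panel, and 19 pairs of assays for 1 miRNA were both detected in at least 10 runs. Over the 17 runs that detected both, the gap of the miR-31 pair ranged over 4.0 cycles, beside 1.5 for miR-26b and 9.0 for miR-106a, the narrowest and widest of the 19. By this range the miR-31 pair took place 10 of 19. Its range leaves out the LT-HSC runs, where the gap was at least 3.8 to 4.9, so it understates how far the miR-31 assays differed. The ranges of the other pairs likewise cover only runs that detected both of their assays.

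**Figure D4:**
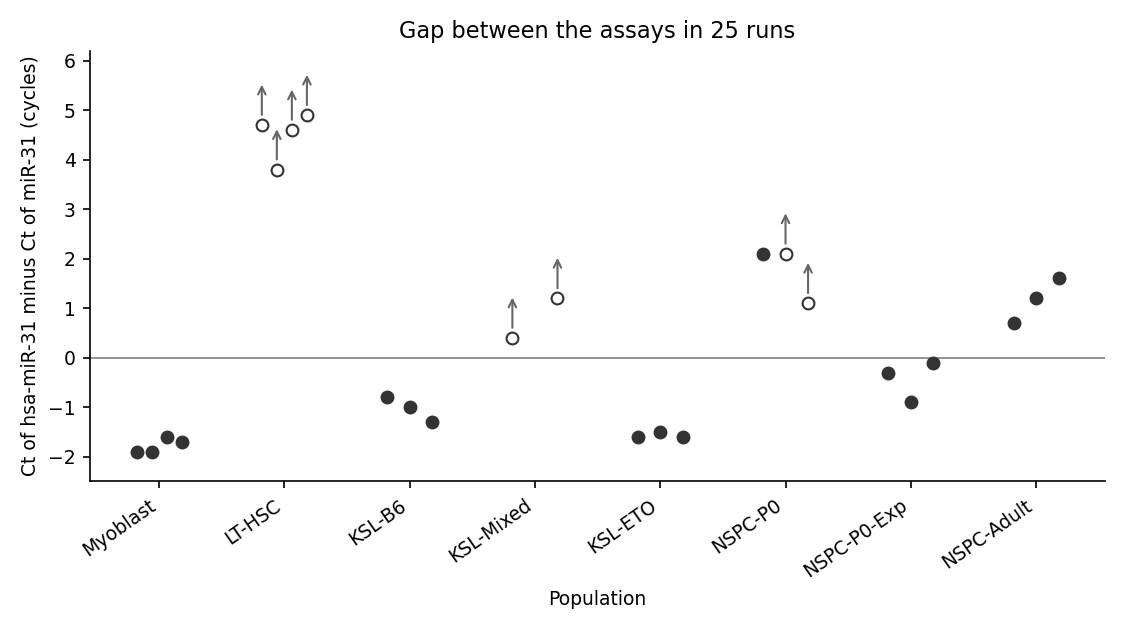
Ct of hsa-miR-31 minus Ct of miR-31 in the 25 runs that detected miR-31, by population; filled points are runs with both assays detected, and open points with arrows are lower bounds from runs that detected miR-31 alone. Myoblast, KSL-ETO and KSL-B6 runs lie below 0 and LT-HSC runs above 3.8.

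By the likeness rule, Pearson's r over the 12 population means with levels held at a floor of -5.23, the members were each among the 5 assays most like the other (r = 0.963). The points share the scaling of their runs, and 162 assays were ranked. miR-183, of a cluster best known from sensory cells, followed both (r = 0.927 to miR-31 and 0.947 to hsa-miR-31): it was detected in 4 of 4 myoblast and 3 of 3 KSL-ETO runs, at Ct 28.6 to 29.3, and in no other run. Its r thus rests on myoblasts and KSL-ETO, and by Spearman's rho it was among the 5 most like assays of neither member. miR-21, widely known as an oncogenic miRNA (r = 0.953 and 0.971), was likewise detected in those 7 runs alone, at Ct 31.3 to 33.2. Its means rose above the floor by no more than 0.06, and those of hsa-miR-425 (r = 0.951 and 0.978) by no more than 0.16, so their likeness rests on values next to the floor. The assay mmu-leuk-mir-9 (r = 0.879) completed the list for miR-31, and miR-29a (r = 0.897) that for hsa-miR-31. miR-29a was also detected in most runs of other populations, MLL-LSC at Ct 29.3 to 29.5 among them, where miR-31 was missed.

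**Figure D5:**
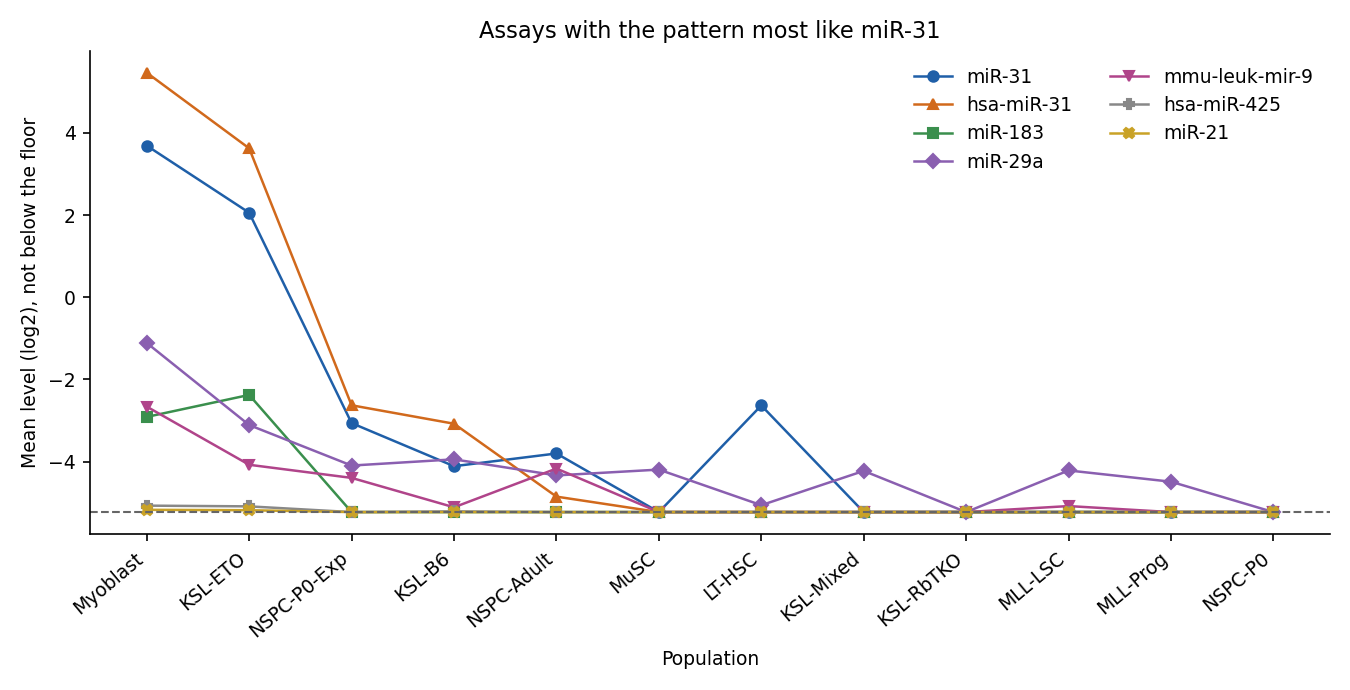
Mean log2 level, held at a floor of -5.23 (dashed), of both members and the assays most like them, over 12 populations ordered by hsa-miR-31. The 7 curves are highest in Myoblast and KSL-ETO, and miR-31, hsa-miR-31, miR-29a and mmu-leuk-mir-9 also lie above the floor in several other populations.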

How the data were processed

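Multiplex reverse transcription and TaqMan quantitative PCR gave the deposited Ct values, per the labels. No source used here states the authors' software, threshold or normalization. The members, groups, lists and tests were chosen with earlier results of these data known. A value without an assay name in 1 run was left out.

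Near-identical MuSC runs (SD of Ct differences 0.156 over 60 assays and 0.211 over 42, against 1.17 to 1.28 between the MuSC samples and 0.324 to 1.09 within other groups) were averaged. In a comparison, levels below the highest detection limit of its samples were set to that limit. An assay entered if every sample of at least 1 group detected it. Assays were fitted with limma 3.58.1 in R 4.3.3, two-sided with Benjamini-Hochberg adjustment at 0.05, for Myoblast against MuSC, NSPC-P0-Exp against NSPC-P0 and NSPC-Adult against NSPC-P0-Exp. The last 2 share the NSPC-P0-Exp runs. The method was tested on simulated data.

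Assays were named by rule: the 2 members, the 5 most like each, up to 3 called list members per direction, and markers. Precision is limited by the 2 to 4 samples per group and by the number of assays detected. Alternatives were other detection limits, scalings and floors, single MuSC runs, a replicate block and leaving out samples. Tables were handled with pandas 2.3.3 in Python 3.11.15.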

Additional observations from a re-analysis of the deposited data

Results flagged for a closer look

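The Ct of miR-31 in myoblast run 3, 22.1, stood apart from the other 3 runs, all at 22.7, by a gap that filled the whole range. Chance marks about 1 group in 20 in this way, and on the level scale, which removes the strength of the run, it did not stand out.

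The step from stem cell to progenitor went opposite ways for miR-31 in the 2 tissues with the scaling used: every myoblast run lay above every MuSC sample, and every KSL-B6 run below every LT-HSC run. The blood difference minus the muscle difference was -11.74 on the log2 scale, with the muscle step entered at its bound. This difference was not tested. With no scaling the blood step turned to 1.23, and by hsa-miR-31 both steps pointed to the progenitors.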

How the results depend on the processing

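Of the member differences, 2 changed sign, both for miR-31 with no scaling: NSPC-Adult minus NSPC-P0-Exp (0.17) and KSL-B6 minus LT-HSC (1.23). Values below give miR-31 first and hsa-miR-31 second where both moved by more than the replicate SD, as log2 differences. Bounds follow the detection limit by construction. The cause of the other shifts was not tested.

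Myoblast minus MuSC was 6.99 and 8.77 at a limit of Ct 32, 12.91 and 14.69 at Ct 38, 12.45 and 14.22 with no scaling, 9.61 and 11.39 on the median of the common assays, 9.59 and 11.36 on the common assays of the pair, 10.72 and 12.21 with quantile normalization, and 14.88 and 17.11 with no common floor. KSL-ETO minus KSL-B6 was 5.07 and 5.60 with no scaling, 5.95 and 6.48 on the median, 5.56 and 6.09 on the pair's assays, and 5.86 and 7.18 with quantile normalization. NSPC-P0-Exp minus NSPC-P0 was 1.84 and 2.27 at Ct 32 and 3.57 and 5.77 with no scaling, for miR-31 also 3.59 with quantile normalization, and for hsa-miR-31 6.82 at Ct 38 and 7.07 with no common floor. NSPC-Adult minus NSPC-P0-Exp was -0.45 at Ct 32, -0.96 at Ct 38, -1.08 on the median and -0.51 on the pair's assays for miR-31, and -1.43 with no scaling for hsa-miR-31.

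KSL-B6 minus LT-HSC was -0.85 and 1.27 at Ct 32 and -0.77 and 4.18 on the pair's assays, and for hsa-miR-31 6.37 at Ct 38, 6.77 with no scaling, 3.53 on the median, 4.82 with quantile normalization, 8.11 with no common floor and 3.21 without the 2 reference assays known from primates alone. KSL-Mixed minus KSL-B6 was -0.93 and -1.96 at Ct 32, -4.93 and -6.77 with no scaling and -2.71 and -5.27 with quantile normalization, for miR-31 also -2.89 on the pair's assays, and for hsa-miR-31 -6.67 at Ct 38 and -7.15 with no common floor. MLL-LSC minus KSL-B6 was -2.56 and -3.59 at Ct 32, -8.67 and -9.70 at Ct 38, -5.73 and -6.77 with no scaling, -4.60 and -5.43 with quantile normalization and -9.84 and -11.70 with no common floor, and for miR-31 -5.60 on the median, -5.62 on the pair's assays and -5.38 without the primate assays. MLL-LSC minus LT-HSC was -1.09 at Ct 32, -6.83 at Ct 38, -4.50 with no scaling, -5.95 with quantile normalization and -11.31 with no common floor for miR-31.

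Leaving out each sample in turn turned no member difference. The ranges that moved were 12.03 to 12.17 (hsa-miR-31, Myoblast), 3.28 to 4.03 (hsa-miR-31, KSL-B6 minus LT-HSC), -3.33 to -2.90 and -5.13 to -4.66 (miR-31 and hsa-miR-31, KSL-Mixed) and -5.65 to -5.45 (miR-31, MLL-LSC minus KSL-B6). The order kept 4 of 8 places for miR-31 and 3 of 5 for hsa-miR-31 with no scaling, and 3 and 1 with quantile normalization. Spearman's rho, and a span of at least 2 (chosen after seeing the data, as were the primate assays and the alternatives for the blood comparisons), each kept 3 of the 5 most like assays for either member.

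Over all assays, limma called 84 in the muscle comparison (69 higher, 15 lower), 59 for expansion (27 and 32) and 54 for adult against expanded neurospheres (27 and 27). The splits moved to 106 and 6, 45 and 22, and 61 and 14 with no scaling. They moved to 44 and 43 (muscle) with quantile normalization, and for adult neurospheres to 15 and 37 on the median and 34 and 20 on the pair's assays. Testing all assays left 36 and 24 calls in the neural comparisons. Leaving out single samples gave 39 to 68 calls for expansion, fewest without NSPC-P0 run 2, and 30 to 80 for adult neurospheres, fewest without NSPC-P0-Exp run 1. A replicate block gave 37 and 34 calls, but same-numbered runs shared only a number: their residuals correlated at -0.07 to 0.02 and at -0.09 to -0.01, and 1 and 0 of 3 runs correlated best with their own number. The muscle samples could not be blocked, since each MuSC sample averages 2 runs. The median difference of all assays was 3.85 (muscle), 0.33 (expansion), 1.13 (adult), -0.50 (KSL-ETO), 3.27 (KSL-B6 minus LT-HSC), -2.27 (KSL-Mixed) and 2.89 (MLL-LSC minus LT-HSC) with no scaling, against 1.73, -0.26, 0.23, 0.57, 0.45, -0.36 and 0.10 with scaling.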
